A study of Homo sapiens with 6 samples.

Results

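Among the promoters of NCI-H661 cells that are richest in CpG, 188 had no strong peak in any sequential ChIP (reChIP) library that paired H3K4me3 with H2AK119ub. They were chosen by a rule that uses the measured peaks. A promoter was the 3001 bp window centred on the start of a gene annotated as protein-coding (GENCODE v44), 1500 bp each way, on chromosomes 1 to 22 or X in hg38. It was called CpG-rich with 150 or more CG dinucleotides, and a peak was called strong with 10 or more reads. Of 19970 protein-coding promoters 5459 were CpG-rich, and 188 of these (3.44%) had no strong peak in any of the 4 reChIP libraries, against 34.8% of all protein-coding promoters. At the other extreme, 3323 CpG-rich promoters (60.9%) had a strong peak in all 4 libraries, and these served for comparison. Some starts lie within 1500 bp of each other and share peaks, and counted once the 188 are 175 of 4870. Since the rule used the reChIP reads at the window, those reads are given here as a description without a test.

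NCI-H661 is an established line of lung large cell carcinoma, a non-small cell lung cancer, and all libraries came from the parental line without treatment, with 1000000 cells per reChIP. Chromatin was pulled down with an H3K4me3 antibody and then an H2AK119ub antibody (K4–K119), in the reverse order (K119–K4), or with nonspecific IgG in both rounds (IgG–IgG), in 2 biological replicates each. The authors called peaks in each library against genomic input. The 4 reChIP libraries held 104207 to 190786 peaks with 867173 to 1977756 reads in peaks, and the IgG–IgG libraries 28672 and 31741 peaks with 58980 and 65445 reads, nearly all in peaks of 2 reads. The files list peaks only, so the sequencing depth is unknown, and a promoter without a listed peak may still have had reads. They hold no expression values, so the labelled cell type was not checked against marker genes.

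As background, most CpG-rich stretches at gene starts are CpG islands, which are usually free of DNA methylation. Their unmethylated CpGs are bound by CXXC-domain proteins that recruit both the SET1 and MLL enzymes, which methylate H3K4, and a variant of the Polycomb repressive complex PRC1, which attaches ubiquitin to H2AK119. H3K4me3 marks active and poised starts, and H2AK119ub is best known from repressed developmental genes. A reChIP is meant to recover stretches of chromatin that carry both. For its final regions the paper overlapped the peaks of both orders, whereas peaks are taken here library by library.

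The sequences of 4 such promoters show how different these windows are. Each is the 250 bases upstream of the RefSeq start (GRCh38.p14, which is hg38), written 5′ to 3′ in the direction of the gene, with every CG in capitals. F8A2, one of 3 near-identical copies of a gene on X, and H3C14, a replication-dependent histone H3 gene, had no peak in any of the 6 libraries. TBX18, a T-box factor of heart and urinary tract development, and GATA2, a zinc finger factor of blood stem cells, had only weak peaks. The F8A2 stretch lies at chrX:155381845-155382094 (plus strand), H3C14 at chr1:149841209-149841458, TBX18 at chr6:84764599-84764848 and GATA2 at chr3:128493202-128493451 (all minus strand).
F8A2: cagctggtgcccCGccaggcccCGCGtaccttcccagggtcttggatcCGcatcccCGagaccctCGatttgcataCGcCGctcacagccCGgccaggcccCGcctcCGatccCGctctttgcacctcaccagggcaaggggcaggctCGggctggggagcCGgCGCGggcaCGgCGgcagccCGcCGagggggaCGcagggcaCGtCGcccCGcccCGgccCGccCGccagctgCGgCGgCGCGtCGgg
H3C14: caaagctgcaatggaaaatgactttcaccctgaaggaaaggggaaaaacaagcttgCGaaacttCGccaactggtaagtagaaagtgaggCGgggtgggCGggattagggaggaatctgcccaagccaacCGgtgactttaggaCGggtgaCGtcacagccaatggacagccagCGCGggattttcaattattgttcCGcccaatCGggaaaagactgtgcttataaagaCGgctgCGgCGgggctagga
TBX18: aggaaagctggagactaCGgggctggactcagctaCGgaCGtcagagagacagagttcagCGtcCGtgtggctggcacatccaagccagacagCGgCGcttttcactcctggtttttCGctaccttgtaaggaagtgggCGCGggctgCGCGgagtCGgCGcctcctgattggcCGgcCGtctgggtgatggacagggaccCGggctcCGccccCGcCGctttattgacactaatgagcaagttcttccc
GATA2: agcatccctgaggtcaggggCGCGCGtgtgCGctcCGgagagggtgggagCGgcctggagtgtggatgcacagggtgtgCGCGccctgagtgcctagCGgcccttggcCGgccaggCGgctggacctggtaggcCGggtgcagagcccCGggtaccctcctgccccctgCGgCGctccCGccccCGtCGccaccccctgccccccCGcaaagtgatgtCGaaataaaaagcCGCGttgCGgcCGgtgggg

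They hold 32, 14, 20 and 24 CG. Over their 250 bases the F8A2 and F8A3 stretches did not differ at any base, and those of H3C14 and its copy H3C15, shifted by 4 bases, did not differ over 246. A read from such a stretch has more than 1 place in the genome. For comparison, 3 of the promoters with the highest reads in all 4 libraries are shown: PPP1R9B, which encodes the synaptic scaffold spinophilin, at chr17:50150678-50150927 (minus strand), MTCL1, a microtubule crosslinking protein gene, at chr18:8705306-8705555 (plus strand), and SMAD6, an inhibitor of BMP signalling, at chr15:66701986-66702235 (plus strand).
PPP1R9B: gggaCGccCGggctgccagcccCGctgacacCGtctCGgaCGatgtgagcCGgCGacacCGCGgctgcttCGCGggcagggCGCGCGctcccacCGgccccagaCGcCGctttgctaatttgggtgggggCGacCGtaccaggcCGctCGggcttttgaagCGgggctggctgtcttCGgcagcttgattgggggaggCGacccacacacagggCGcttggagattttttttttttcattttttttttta
MTCL1: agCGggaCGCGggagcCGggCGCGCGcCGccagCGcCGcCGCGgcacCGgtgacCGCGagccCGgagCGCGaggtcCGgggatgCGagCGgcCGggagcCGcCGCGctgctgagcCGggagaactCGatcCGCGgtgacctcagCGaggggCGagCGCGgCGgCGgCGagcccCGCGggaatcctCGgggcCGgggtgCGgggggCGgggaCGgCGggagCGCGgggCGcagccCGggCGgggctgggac
SMAD6: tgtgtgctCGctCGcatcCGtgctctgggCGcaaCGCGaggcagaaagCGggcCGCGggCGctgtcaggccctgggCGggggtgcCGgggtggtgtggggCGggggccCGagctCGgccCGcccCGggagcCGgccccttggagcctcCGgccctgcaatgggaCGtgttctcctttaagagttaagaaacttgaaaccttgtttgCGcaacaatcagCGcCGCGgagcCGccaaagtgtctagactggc

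These hold 26, 49 and 25 CG. The highest peak at SMAD6 had 772 reads in K4–K119 replicate 1 and 595 in replicate 2, and the reverse order gave 1134 and 573. The start shared by NKX2-1, a transcription factor of lung and thyroid, and SFTA3 was first by its lowest library, with 1515, 959, 1266 and 768 in the same order. At TBX18 the same 4 libraries gave 8, 3, 2 and 3 reads.

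A RefSeq start within 50 bp of the GENCODE start was found for 112 of the 188 promoters and for 1770 of the 3323 with strong peaks throughout. The median number of CG in the 250 upstream bases was 20 (quartiles 14 and 27) in the 112, 29 (22 and 35) in the 1770 and 28 over all matched CpG-rich promoters. The letters GGGCGG or, on the other strand, CCGCCC, the GC box bound by SP factors, were present in 69.6% of the 112 and 85.3% of the 1770. They were in 82.4% of all matched CpG-rich promoters and in 56.1% of all matched protein-coding promoters. The TATA box letters TATAAA, on either strand, were in 8.04% of the 112 (9 promoters, H3C14 among them) and 4.12% of the 1770. They were in 4.91% of all matched CpG-rich promoters and in 10.5% of all matched protein-coding promoters.

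The 3001 bp windows of the 188 promoters were also at the lower end of CpG content. Their median was 170 CpG (quartiles 159 and 193), against 190 (168 and 222) with strong peaks in all 4 libraries, although the median GC content was 60.5% and 60.2%. The ratio of observed to expected CpG, which corrects for base composition, had a median of 0.646 against 0.730. The share without a strong peak was 5.07% (90 of 1775) at 150 to 169 CpG, 3.14% at 170 to 199, 2.75% from 200 to under 250 and 0.899% (5 of 556, exact 95% interval 0.293 to 2.09%) at 250 or more. Intervals here are exact binomial and cover counting error only. The 5 most CpG-dense were SOX1 (333 CpG) and SOX11 (324), transcription factors of neural progenitors and neurons, NETO1 (299), a glutamate receptor partner, MMP23B and ICOSLG (264 each). They were named after their values were seen, apart from SOX1 and ICOSLG.

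Many of the 188 windows are repeated in the genome. Of the 75-base words in each window, the share that occurs once in hg38 was counted, and a window was called unique with at least 90%. By this measure 49 of the 188 (26.1%, 19.9 to 32.9%) were repeated, against 57 of the 3323 with strong peaks in all 4 (1.72%) and 157 of all 5459 (2.88%). Put the other way, 31.2% (24.1 to 39.1%) of repeated CpG-rich windows had no strong peak, against 2.62% (2.21 to 3.09%) of the 5302 unique ones. All 13 CpG-rich windows without a single unique word were among the 188: FAM72C, H3C14, H3C15, ICOSLG, UBE2L3, CENPVL1, CENPVL2 and 6 genes of the pseudoautosomal region of X. The reads were aligned with bwa-mem at its default settings, which give a read with several equal matches a single place and a low mapping quality. Whether such reads were filtered out later is not given in the sources used here, so absence of a peak at a repeated window cannot be told apart from absence of assignable reads. Where stated, the following values are also given for the 139 unique windows.

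Weak peaks, those of 2 to 9 reads, were present at 135 of the 188 promoters (71.8%, 64.8 to 78.1%), and at 83.5% of the unique windows. When only weak peaks with an input read were counted, the share was 30.9%. In every reChIP library but K4–K119 replicate 1, 98.9 to 100% of weak peaks had no input read. The share of 30.9% therefore rests almost entirely on K4–K119 replicate 1. Reads per promoter are those of its highest peak in a library. K4–K119 replicate 1 had a peak at 83 promoters (44.1%), where 71.8% of all protein-coding promoters had a peak of any size, and 96.5% of CpG-rich promoters a strong one. K4–K119 replicate 2 had a peak at 39 (20.7%), with 48.7% and 76.8% for the same backgrounds. K119–K4 replicate 1 had one at 77 (41.0%, with 56.9% and 84.2%) and replicate 2 at 75 (39.9%, with 50.1% and 66.2%). The highest peak at these promoters had a median of 4 reads in replicate 1 and 3 in replicate 2 of K4–K119, and of 2 in each K119–K4 replicate. Where all 4 libraries were strong, the medians were 181, 91, 183 and 70 reads.

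**Figure D1:**
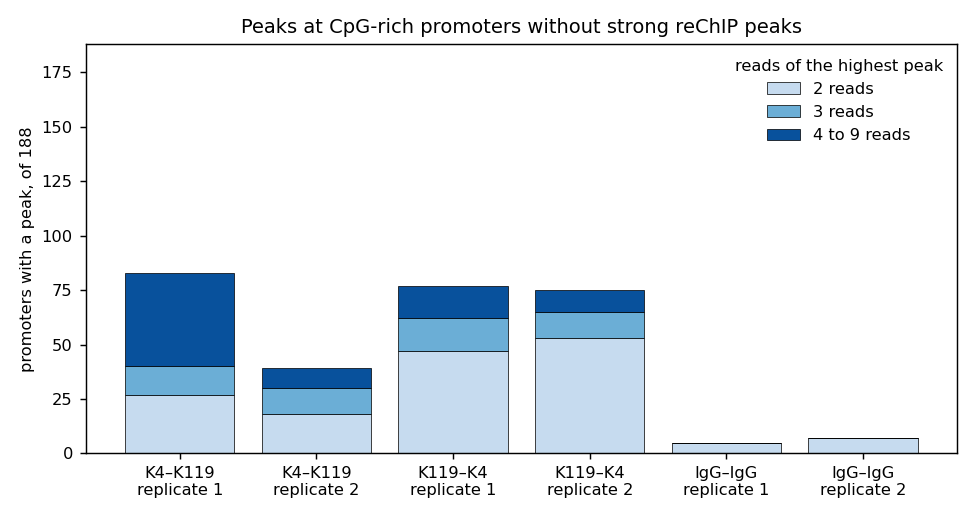
Number of the 188 CpG-rich promoters without strong reChIP peaks that had a peak in each library (vertical axis, up to 188), divided by the reads of the highest peak. The reChIP libraries had peaks at 39 to 83 promoters and the IgG–IgG libraries at 5 and 7, all of 2 reads.

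Promoters under 150 CpG that also lacked a strong peak, 6758 in number, are the nearest comparison for weak peaks, since the same limit of 9 reads applied to them. Whether their windows are unique was not computed. Of the 6758, 18.4% had a peak in K4–K119 replicate 1 and 14% in replicate 2, while K119–K4 had 23.7% and 26%. At the 139 unique CpG-rich windows the shares were 51.8% (43.2 to 60.4%), 23% (16.3 to 30.9%), 49.6% (41.1 to 58.2%) and 48.2% (39.7 to 56.8%). At the 49 repeated windows they were 22.4%, 14.3%, 16.3% and 16.3%. As these reads chose the set, the shares are set side by side without a test. By CpG count, promoters without a strong peak had a weak one in any library in 48.5% of cases under 50 CpG and 65.3% at 50 to 99. From 100 to under 150, the nearest band, it was 64.2% (60.4 to 67.9%), against 71.8% (64.8 to 78.1%) at 150 or more.

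**Figure D2:**
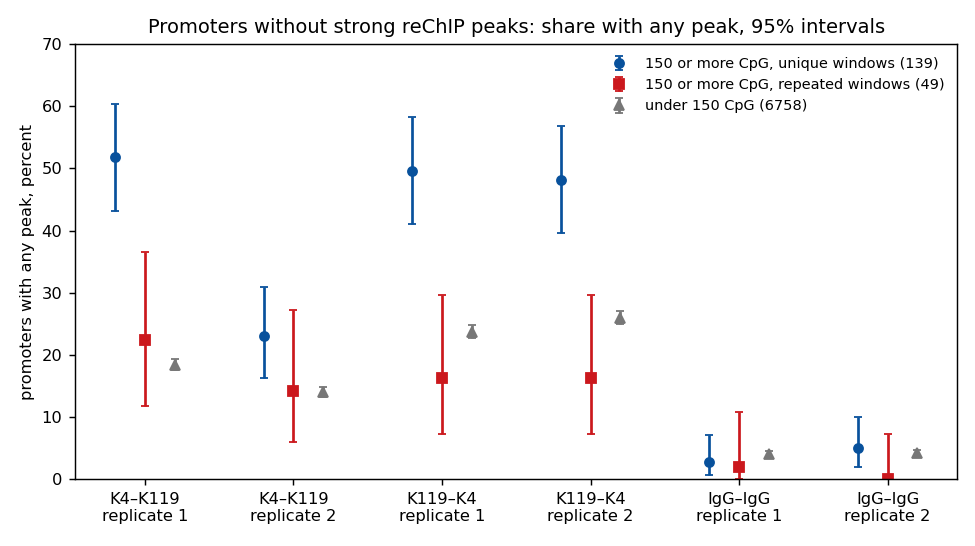
Share of promoters with any peak in each library (vertical axis, percent, exact 95% intervals) among promoters without strong reChIP peaks: CpG-rich ones with unique windows, CpG-rich ones with repeated windows, and those under 150 CpG. In the 4 reChIP libraries the unique CpG-rich windows lie at 23 to 51.8%. The CpG-poorer promoters, not filtered for uniqueness and mostly under 50 CpG, lie at 14 to 26%. In IgG–IgG all 3 sets lie between 0 and 5.04%.

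The weak peaks recurred in part. None of the 4 reChIP libraries had a peak at 53 of the 188 promoters, 1 library at 50, 2 at 44, 3 at 28 and all 4 at 13 (6.91%). In unique windows 23 promoters had none and 12 a peak in all 4 (8.63%). A peak in all 4 was found at 0.696% of the CpG-poorer promoters, which were not filtered for uniqueness and mostly had under 50 CpG. Both K4–K119 replicates had a peak at 30 promoters and both K119–K4 replicates at 42. Peaks came from both orders at 67 promoters, from K4–K119 alone at 25 and from K119–K4 alone at 43. The peaks were narrow, with median widths of 150 to 200 bp, and their centres lay a median of 496 to 756 bp from the gene start. In K4–K119 replicate 2 and both K119–K4 replicates 98.9 to 100% of them had no input read, and in K4–K119 replicate 1 43.9%.

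Among promoters with a weak peak in all 4 reChIP libraries, DGCR6, a gene of the DiGeorge region of chromosome 22, had the most weak-peak reads. In its window, with 93.3% unique words, K4–K119 gave peaks of 6 and 6 reads and K119–K4 peaks of 8 and 4. The neighbouring start of ENSG00000283809 lies 0.21 kb away and shares its peaks in part, with 5, 4, 8 and 2 reads. PRMT6, an arginine methyltransferase of histone H3, had peaks of 9 and 3 reads with K4–K119 and of 5 and 5 with the reverse order, next to 2 reads in IgG–IgG replicate 2. SOX1 had 8, 3, 3 and 3 reads in the same order and no IgG–IgG peak. MYO15B, a myosin gene, had 5, 2, 5 and 3, and TRPM2, a cation channel gene, 3, 4, 2 and 2. CDK11A, which encodes a cyclin-dependent kinase, had 9, 3, 2 and 2, in a window with 40.2% unique words. Its near copy CDK11B lies beside it. All of these values are below the limit of 10 reads that defined the set.

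IgG–IgG peaks were as rare at the 188 promoters as elsewhere, within counting error. Replicate 1 had a peak at 5 of them (2.66%, 0.869 to 6.10%) and replicate 2 at 7 (3.72%, 1.51 to 7.52%), where all protein-coding promoters had 3.65% and 4.04%, and those with strong reChIP peaks in all 4 libraries 3.76% and 4.12%. Either replicate had one at 12 promoters (6.38%, 3.34 to 10.9%), compared with 7.76% (6.88 to 8.73%) of promoters with strong peaks in all 4, 7.99% of CpG-rich and 7.55% of all protein-coding promoters. In unique windows it was 7.91% (4.02 to 13.7%) of the 139. No promoter of the 188 had a peak in both, where the share was 0.147% of all CpG-rich promoters. With 12 promoters, a difference of a few percentage points was not detectable.

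All 12 promoters had IgG–IgG peaks of 2 reads. In replicate 1 they were at GABRA5, a GABA receptor subunit gene, PROB1, RGPD2 and the adjacent TMEM176A and TMEM176B, whose starts lie 0.957 kb apart. In replicate 2 they were at C1QTNF12, DBX1, DRD4, KCNA5, P4HTM, PRMT6 and TMC6. At 11 of the 12, a reChIP library also had a weak peak, and RGPD2 was the exception. GABRA5 had 2 reads in each K4–K119 library and none in K119–K4, the same height as in IgG–IgG. C1QTNF12, an adipokine gene, had no K4–K119 peak and 2 and 8 reads in K119–K4. The number of IgG–IgG peaks within 500 kb of the start had a median of 11 and 12 in the 2 replicates around the 188 promoters, as around all CpG-rich promoters. Around the 49 repeated windows it was 7 and 7.

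Gene lists written from gene symbols covered 57 of the 188 promoters, and 131 were on none of the 32 lists. These counts are described against the share of 3.44% in all CpG-rich promoters. The largest share was that of near-identical multicopy families, with 18 of its 47 CpG-rich promoters lacking a strong peak (38.3%, 24.5 to 53.6%). These included F8A1, F8A2 and F8A3, the RANBP2-like RGPD2, RGPD3 and RGPD4, the DUX4 gene of early embryonic genome activation, RIMBP3 and its copies, and the 3 H2AB genes, which encode a short histone H2A variant of the testis and are on the list of histone genes too. Only 2 of the 18 had a unique window. F8A1 had a peak of 3 reads in K4–K119 replicate 1 and one of 2 reads in K119–K4 replicate 2, F8A2 and F8A3 none in any library, and all 3 had 246 CpG. RGPD4, with 233 CpG and 63% unique words, had none either.

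Histone genes contributed 6 of 18 CpG-rich promoters (33.3%, 13.3 to 59.0%), all in repeated windows, whereas none of the 11 with unique windows was among the 188. H3C14 and H3C15 had no peak in any library, with 246 and 245 CpG. H2AC19, an H2A gene 1.55 kb from H3C15, had 6 and 7 reads in the first replicates of K4–K119 and K119–K4, and none in the second ones. H2AB1 had 2 reads in K119–K4 replicate 2.

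Germline and meiosis genes contributed 6 of 22 (27.3%, 10.7 to 50.2%), and here all 6 windows were unique. They were PIWIL1, TDRD6, TDRD9 and MOV10L1 of the piRNA pathway, which silences transposons in germ cells, RNF212, which stabilises crossovers, and SPATA3. PIWIL1, with 222 CpG, had peaks of 2 reads in all reChIP libraries but K4–K119 replicate 2. RNF212 had 2 reads in both K119–K4 replicates only. TDRD6 and MOV10L1 had no peak in any of the 6 libraries. Strong peaks in all 4 libraries were found at 10 of the 22.

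T-box and GATA genes contributed 3 of 12 (25%, 5.49 to 57.2%), and 1 of the 12 had strong peaks in all 4. GATA2 had 2 and 3 reads with K4–K119, against 0 and 2 with K119–K4, and TBX1, a factor of the pharyngeal arches, had no K4–K119 peak and peaks of 4 and 3 reads with K119–K4. Both had strong peaks just outside the window, as given below. Homeobox genes, the longest of the lists of developmental regulators with 123 CpG-rich promoters, contributed 5 (4.07%, 1.33 to 9.23%), a share near the background. They included NKX2-6, GBX1, LBX2 and CDX1. GBX1 had 8 reads in K119–K4 replicate 1 and no peak in any other library. NKX2-6, a heart and pharynx factor, had 3, 0, 3 and 4 reads, and LBX2 2, 0, 0 and 3. SOX genes contributed SOX1 and SOX11 of 15.

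Receptors for neurotransmitters and neuropeptides contributed 4 of 34 (11.8%, 3.30 to 27.5%): the dopamine receptors DRD4 and DRD5, the vasopressin receptor AVPR1A and the somatostatin receptor SSTR4. AVPR1A likewise had 2 reads in all of them but K4–K119 replicate 2. DRD5 had 2 reads in both K119–K4 replicates, and SSTR4 2 reads in K119–K4 replicate 1 alone. DRD4 was the reverse, with 2 and 3 reads in K4–K119 and none in K119–K4, beside 2 reads in IgG–IgG replicate 2. Outside the lists, and noted after the values were seen, the set held genes of the peptide ligands oxytocin (OXT), thyrotropin-releasing hormone (TRH), secretin (SCT), urocortin (UCN) and proenkephalin (PENK), and of the neurofilament subunits NEFL and NEFM. How many CpG-rich promoters belong to genes of these kinds was not counted, so no share can be set beside that of all CpG-rich promoters. PENK had 2 reads in each of the 4 reChIP libraries.

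On 12 lists with 288 CpG-rich promoters no promoter lacked a strong peak. Among them were the SP, KLF, EGR, ZIC, GLI and SALL zinc finger genes (0 of 46, upper limit 7.71%), axon guidance genes (0 of 39, 9.03%) and forkhead genes (0 of 34, 10.3%). All 3 upper limits exceed the background of 3.44%. Genes of general cell function appeared singly, with RPL22 of 21 cytoplasmic ribosomal protein promoters, MRPL23 of 15 mitochondrial ones and ATP5MJ of 26 of the respiratory chain.

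By chromosome, X had the largest share, with 26 of the 188 promoters (17.4% of its CpG-rich promoters, 11.7 to 24.5%). In unique windows it was 6 of 124 (4.84%, 1.80 to 10.2%). Chromosome 22 followed with 13 of 171 (7.60%, 4.11 to 12.6%), in unique windows 5.62%. On chromosome 8 all 12 promoters of the set had unique windows, 5.26% (2.75 to 9.01%) of its 228 unique ones. In unique windows, chromosomes 22 and 8 thus had larger shares than X. Only the interval of chromosome 8 lay wholly above the 2.62% of all unique windows. It is 1 of many chromosomes compared, and no test was made. Over all windows the lowest shares were 0.847% on chromosome 18 (1 of 118) and 0.862% on chromosome 6 (2 of 232). Many intervals overlap, and the order of chromosomes with few promoters is not fixed by these counts.

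All 6 CpG-rich promoters of the pseudoautosomal region of the short arm of X were among the 188: GTPBP6, PPP2R3B, SLC25A6, ASMTL, AKAP17A and CD99. This region is shared with Y. SLC25A6 encodes a mitochondrial ADP/ATP carrier and CD99 a surface glycoprotein of many cell types. Their windows had no unique word, and none of the 6 libraries, IgG–IgG included, had any peak in the whole region, although they had 1160 to 7469 peaks elsewhere on X.

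These 6 formed the longest of 23 runs of neighbouring CpG-rich promoters that all lacked a strong peak. The runs held 57 of the 188 promoters. A run of 4 on the long arm of X was H2AB2, F8A2, F8A3 and H2AB3, over 79.3 kb, all in repeated windows and without any peak. The other run of 4 lay on chromosome 11 in unique windows: IRF7, a regulator of interferon genes, CDHR5, a cadherin of the intestinal brush border, SCT and DRD4, within 21.3 kb. Its peaks had at most 3 reads. IRF7 had 2 reads in K119–K4 replicate 2, CDHR5 2 reads in both K119–K4 replicates and SCT 2 reads in K119–K4 replicate 1. The strong peak nearest to these 4 starts was 37383 to 56132 bp away. Near chromosome ends, within 2 Mb, lay 45 of the 188 promoters (23.9%, 18.0 to 30.7%), compared with 14.7% (13.5 to 16.0%) of those with strong peaks in all 4. In unique windows the shares were 20.9% (14.4 to 28.6%) and 14.5%.

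The nearest strong reChIP peak outside the window lay a median of 31550 bp away, against 32800 bp for promoters with strong peaks in all 4. Strong peaks that overlap the window were left out. This drops peaks that cross the edge at the comparison promoters and none at the 188, so the distances are not fully alike. The median over the 188 mixes unlike windows, with medians of 21180 bp for the 139 unique windows and 78990 bp for the 49 repeated ones, where unique windows with strong peaks in all 4 had 32560 bp. It lay within 5 kb for 26 of the 188 (13.8%, against 11.8%, and 17.3% against 11.7% in unique windows) and beyond 50 kb for 79 (42.0%, against 38.1%, and 36.0% against 37.8% in unique windows). For 9 promoters it was within 2000 bp, so just past the edge. GATA2 was 1801 bp from one, and the highest strong peak within 5 kb had 633 and 396 reads with K4–K119 and 687 and 300 with K119–K4. TBX1 was 1798 bp from one, with 408, 250, 629 and 214 reads in the same order. At these genes the strong peaks lay next to the window around the annotated start, not over it. Of the 26, 9 had a strong peak within 5 kb in all 4 libraries and 10 in 1 library, which was K4–K119 replicate 1 for 7. At the other end, the strong peak nearest to ADCY8, a brain adenylyl cyclase gene with 235 CpG and no peak in any library, was 596109 bp away.

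The annotated start is not the only start of a gene. A strong peak that did not touch the window lay within 1500 bp of another transcript start of the same gene at 21 of the 188 (11.2%), a share near the 11% of all CpG-rich promoters and the 11% of those with strong peaks in all 4. It did so in all 4 libraries at 11 (5.85%, against 3.87% and 4.00%): RPL22, WDR90, BCKDK, STAT5B, TMC6, TBX1, UBE2L3, TYMP, GATA2, MFSD1 and GBX1. At RPL22, a ribosomal protein gene, the nearest strong peak was 2089 bp away, with 120, 42, 57 and 20 reads within 5 kb. STAT5B, a transducer of cytokine signals, had its nearest one at 11233 bp. In the gene body beyond the window, 30 of the 188 (16.0%) had a strong peak that did not touch the window, against 20.5% of those with strong peaks in all 4. In unique windows it was 18.7% against 20.5%. The gene body includes other starts inside it, so the 30 overlap with the 21 and the counts do not add up.

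No peak in any of the 6 libraries was found at 52 promoters, 29 in repeated and 23 in unique windows. With the most CpG among these were ICOSLG, which encodes a T-cell costimulatory ligand, F8A2, F8A3, H3C14, H3C15, GTPBP6, ADCY8 and RGPD4, and of these ADCY8 alone had a unique window. The other unique windows without a peak were of many kinds and included the intestinal homeobox gene CDX1 (158 CpG), the contactin gene CNTN3 (152), the orphan receptor gene GPR25 (166), the germ cell gene RBM44 (159) and RARRES1 (164), named after their values were seen.

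The set depends on 1 library more than on the others. When the promoters were chosen on the other 3 libraries, K4–K119 replicate 1 had a strong peak at 484 of 672 (72.0%, 68.5 to 75.4%), with a median of 61 reads and up to 494. In the same way K119–K4 replicate 1 had one at 3 of 191 (1.57%, 0.325 to 4.52%), with at most 24 reads, and K4–K119 replicate 2 and K119–K4 replicate 2 at 0 of 188 each (upper limit 1.94%). Of all CpG-rich promoters, 96.5% had a strong peak in K4–K119 replicate 1. For the other libraries, in the order named, this share was 84.2%, 76.8% and 66.2%. The share at promoters chosen on the other 3 was thus lower for every library. K4–K119 replicate 1 had 19235 strong peaks in all, where the others had 6437 to 9878. Without it, the set would hold 672 promoters.

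At the edges of the rule, 7 of the 188 had exactly 150 CpG, among them CSMD1, CAVIN3, DBX1 and AKAP17A, and 6 promoters with 1 CpG fewer and no strong peak stayed outside, among them CLEC14A with 8 reads in K4–K119 replicate 1. A highest peak of 9 reads was found at 7, among them HS3ST3A1, a heparan sulfate modifying enzyme gene with 236 CpG, and PABPC1L2B. A highest peak of 10 reads kept 4 CpG-rich promoters outside, at CASTOR2, FAM72D, HBA2 and SLC4A10. The last of these, a bicarbonate transporter gene, reached 10 reads in K119–K4 replicate 1 and stayed at 4 and 2 with the other order.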

How the data were processed

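Peaks of 6 libraries of parental NCI-H661 cells were used, grouped by the labels. Per the submitters' notes, Trim Galore 0.6.6, BWA 0.7.13 (genome hg38), SAMtools 1.9 and Picard 2.6.0 prepared the alignments, and the authors called peaks per library with EPIC2 in 100 bp bins against input. The deposited counts of library and input reads per peak are whole and unscaled. The deposited p-value and FDR come from the authors' test against input. The deposited log2 fold is the ratio of reads to scaled input, and the deposited score is derived from that fold. Neither p-values nor scores were used further, and the study's blacklist and its fold filter were not applied, the fold filter being an alternative.

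For each gene start the highest peak overlapping the window was taken. CpG and 75-base words (both strands, chromosomes 1 to 22, X, Y and M) were counted in hg38. Windows were tested on simulated peaks. No test between groups was made, since the set was chosen on the reChIP reads and promoters are not replicates. Shares carry exact binomial 95% intervals. The members, gene lists and comparisons were chosen with earlier results of these data known. Genes were named by rule: up to 8 with weak peaks in most libraries, with IgG–IgG peaks, or with most CpG and no peak, up to 4 per list with 3 or more members, the 3 longest runs, up to 4 on each side of a limit, and the 5 strongest for comparison. Other genes were named after their values were seen, and some that the rule takes, with 1 list, are not reported here. Alternatives changed the limits for reads, CpG, window, start, fold, uniqueness and input reads, counted shared promoters once, and left out each library. Python 3.11.15, numpy 2.4.6, pandas 2.3.3, scipy 1.17.1, numba 0.67.0 and matplotlib 3.10.9 were used.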

Additional observations from a re-analysis of the deposited data

How the results depend on the processing

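Without K4–K119 replicate 1 the number of promoters rose from 188 to 672, or 12.3% of CpG-rich promoters, and without each other reChIP library it was 188 to 191, so that leaving out a library gave 3.44 to 12.3%. The share with a weak peak ranged from 61.3 to 71.8% in this way. The share with an IgG–IgG peak ranged from 2.66% without IgG–IgG replicate 2 to 8.33% without K4–K119 replicate 1 among these promoters, and from 3.76 to 8.09% where all reChIP libraries in use were strong. The share of CpG-rich promoters without a strong peak was 2.69% with 5 reads for a strong peak, 4.73% with 20, 4.12% with 130 CpG (313 promoters), 2.66% with 170 CpG (98 promoters) and 2.62% in unique windows. The share with a weak peak was 63.9% with 5 reads, 79.5% with 20, 62.9% in windows of 1000 bp and 83.5% in unique windows. With 5 or 20 reads, weak means any peak under that limit, so these shares do not count the same peaks. In promoters with strong peaks in all 4, the IgG–IgG share was 5.28% in windows of 1000 bp and 9.90% in windows of 2000 bp, the CpG count staying that of 1500 bp. Counting only weak and IgG–IgG peaks with an input read, the shares were 30.9% for weak peaks, 0 for IgG–IgG among these promoters and 0.271% with strong peaks throughout. No IgG–IgG peak at these promoters had an input read, so the 0 was fixed in advance. Nearly all weak peaks left were those of K4–K119 replicate 1. A log2 fold above 1 left the number at 188, but promoters with strong peaks in all 4 fell from 3323 to 2398. Of the comparisons with that set, only the IgG–IgG share was repeated, and it was 8.05%. With every transcript start considered, the number of promoters without a strong peak was 167. No paired fit was made, since no result comes from a test. Reads outside peaks are not listed, so depth at a promoter without a peak is unknown.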
